A study of Mus musculus with 8 samples.

Results

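The genes of the cytosolic ribosomal proteins were followed in the livers of mice that carried an adeno-associated virus (AAV) for mouse Nudt7, a peroxisomal enzyme that splits coenzyme A and its acyl esters, or for GFP. Members were protein-coding genes of the GENCODE M21 annotation with a ribosomal protein symbol of the form Rpl or Rps followed by a number (with the endings a, l, x or al allowed), Rplp0 to Rplp2, and Rpsa. This rule found 81 of the 34547 genes summed from the files, 50 of the large and 31 of the small subunit. The 81 genes lay on 18 autosomes and the X chromosome, and chromosome 7 alone carried 14 of them. All mice were C57BL/6J, were injected by tail vein at 8 weeks of age with 2.5e+11 viral particles in 150 µl of buffered saline, and were fasted for 24 h before the liver was taken 3 to 4 weeks later, at 11 to 12 weeks. The Nudt7 group had 4 livers and the GFP group, the control for the virus itself, had 4. The sources used here do not give the sex of the mice, the promoter that drove each insert or the capsid of the virus. Nudt7 RNA stood at 2006 ± 1050 CPM (read counts scaled to a common library depth; SD, n = 4) with the Nudt7 virus and at 72.3 ± 8.26 CPM with GFP, and the lowest Nudt7 liver (1301 CPM) was above the highest GFP liver (79.9 CPM).

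A ribosome has a small subunit, which reads the mRNA, and a large subunit, which joins amino acids. Each whole ribosome needs a copy of nearly every ribosomal protein. Most vertebrate mRNAs for these proteins are short, abundant, and begin with a 5′ terminal oligopyrimidine (TOP) tract, a run of C and T that opens with C, through which the kinase mTORC1 controls their translation; fasting lowers mTORC1 activity in liver. Their processed pseudogenes, copies made by reverse transcription of the mRNA, are scattered through the mouse genome, so that many short reads match more than 1 locus.

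The sequences that bear on the values are shown first. The coding sequences of Rps27 (GRCm38 chr3:90212728-90213615, minus strand, 4 coding exons) and of its annotated relative Rps27l (chr9:66946175-66949354, plus strand, 4 coding exons) were each 252 bases long without the stop codon in the GENCODE M21 transcripts, and differed at 60 positions, shown in capitals.
Rps27: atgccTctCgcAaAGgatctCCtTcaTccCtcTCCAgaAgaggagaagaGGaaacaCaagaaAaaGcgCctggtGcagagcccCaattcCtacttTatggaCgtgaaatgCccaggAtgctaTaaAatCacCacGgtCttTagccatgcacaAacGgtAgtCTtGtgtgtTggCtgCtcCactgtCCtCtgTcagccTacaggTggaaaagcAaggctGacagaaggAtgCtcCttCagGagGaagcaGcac
Rps27l: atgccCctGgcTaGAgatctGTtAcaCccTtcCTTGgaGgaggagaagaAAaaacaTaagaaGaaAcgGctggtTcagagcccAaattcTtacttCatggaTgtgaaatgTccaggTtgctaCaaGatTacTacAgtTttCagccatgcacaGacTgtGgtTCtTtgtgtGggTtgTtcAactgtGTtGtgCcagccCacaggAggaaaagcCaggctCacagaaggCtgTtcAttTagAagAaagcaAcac
The longest run shared by this pair at the same position was 11 bases, so reads from these genes can be told apart. By contrast, the coding sequence of Rps27rt, a gene with 1 coding exon at chr9:114982456-114982707 (minus strand) that the symbol rule leaves out, was identical to that of Rps27 over all 252 bases. Reads within the coding sequence therefore cannot be assigned to Rps27 or to Rps27rt by their letters.

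Rpl41 encodes the shortest protein of this set, and its coding sequence in the most abundant transcript (GRCm38 chr10:128548390-128548960, minus strand, 3 coding exons) had 75 bases, or 25 codons.
Rpl41: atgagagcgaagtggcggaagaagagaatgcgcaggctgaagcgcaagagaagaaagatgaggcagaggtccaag

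Start sites were read from the RefSeq promoter table for GRCm38.p6, in which 61 of the 81 members were found. A C followed by at least 4 bases of C or T, on the transcribed strand and beginning within 10 bases of the annotated start, was present in 38 of the 61 members (62.3%) and in 34.3% of 26964 other genes in the table. Windows of 30 bases around the start (15 on either side) are shown for the members with the highest RNA level that the table held and for Rps27, Rps27l and Rpl41, with the part of the tract inside the window in capitals.
Rpl13a, chr7:45128731-45128760, minus strand: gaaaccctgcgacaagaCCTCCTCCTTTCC
Rps2, chr17:24720048-24720077, plus strand: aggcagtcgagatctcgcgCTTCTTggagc
Rps25, chr9:44407699-44407728, plus strand: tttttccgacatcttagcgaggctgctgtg
Rps27, chr3:90213634-90213663, minus strand: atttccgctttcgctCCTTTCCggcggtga
Rps27l, chr9:66946071-66946100, plus strand: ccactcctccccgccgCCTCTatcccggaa
Rpl41, chr10:128549154-128549183, minus strand: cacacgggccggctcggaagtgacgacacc
Rps25 and Rpl41 had no such tract near the start annotated in this table. In the whole window, from 250 bases before to 50 after the start and on both strands, CCGGAAG was found in 41.0% of the 61 members and 9.86% of the other genes, AAGATGG in 14.8% and 7.26%, TATAAA in 9.84% and 15.7%, and CACGTG in 9.84% and 8.09%. Those matches describe the letters only.

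Levels between genes were compared as TPM, the share of a library's transcripts, which is scaled for transcript length. Of the 81 members, 78 passed the filter on low counts and were tested, 47 of the large and 31 of the small subunit. Rpl10l, Rpl39l and Rpl3l did not pass: Rpl10l was listed at 0 reads in all 8 livers, Rpl39l had 1 read in total, and Rpl3l, a form known from muscle, had 21 reads in total and 4 at most in a liver. The median member stood at 277 TPM, and the middle 50% of the members lay between 206 and 381 TPM. The highest was Rplp1, an acidic protein of the stalk that recruits elongation factors, at 823 TPM over the 8 livers. Other members at high levels were Rpl13a at 619 TPM, Rps2 at 597, Rps29 at 540 and Rps25 at 502 TPM. In Rplp1 the Nudt7 livers held 754, 736, 1107 and 792 TPM and the GFP livers 733, 803, 773 and 890 TPM. The groups overlapped, and the highest of the 8 values was that of Nudt7 replicate 3.

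The lowest tested members were Rpl12 at 12.4 TPM, Rps12 at 18.4, Rpl5 at 26.3 and Rpl27 at 27.2 TPM, and no other tested member was below 100 TPM. Those 4 low values lay beside high values at processed copies. A copy was defined as a listed gene, outside the members, of which at least 50% of the 31-base words occur in the member; 287 were found for 68 of the tested members, and 277 of them are annotated as processed pseudogenes. With the copies added, Rpl12 stood at 254 TPM, Rps12 at 465, Rpl5 at 393 and Rpl27 at 287 TPM, so that the copies held 95.1%, 96.0%, 93.3% and 90.5% of the sums. The copies concerned were chiefly Gm10275 for Rpl12 (239 TPM), Rps12-ps3 for Rps12 (446 TPM), Gm15500 for Rpl5 (366 TPM) and Rpl27-ps3 for Rpl27 (258 TPM). Copies took more than 50% of the sum in 9 members, more than 10% in 20 and less than 1% in 50. With copies added, the ratio of the highest to the lowest tested member fell from 66.5 to 6.75, and the SD of the log2 level over members went from 1.04 to 0.52. The level of a single member with abundant copies is therefore uncertain.

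The clearest pattern across livers was that of a single animal. In all 78 tested members the highest CPM of the 8 livers was that of Nudt7 replicate 3, and 28.3% of all 13678 genes tested were highest in that liver. The median member was 1.11 above its own 8-liver median on the log2 CPM scale there. In the other 7 livers this median deviation ran from -0.13 in GFP replicate 3 to 0.19 in GFP replicate 4. Against the mean of the other 3 Nudt7 livers, the median member was 2.19-fold higher in replicate 3. It was more than 1.5-fold higher in 75 of 78 members and more than 2-fold higher in 52. The shares of all genes above these folds are not given here. The smallest ratios were those of Rpl5 (1.37-fold), which with Rpl11 forms part of the central protuberance and can bind Mdm2, Rpl7a (1.40-fold) and Rpl4 (1.42-fold). The largest, after Rps27 (27.9-fold), were those of the small-subunit genes Rps13 (4.08-fold) and Rps15a (3.60-fold). All of these ratios were taken without copies.

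**Figure D1:**
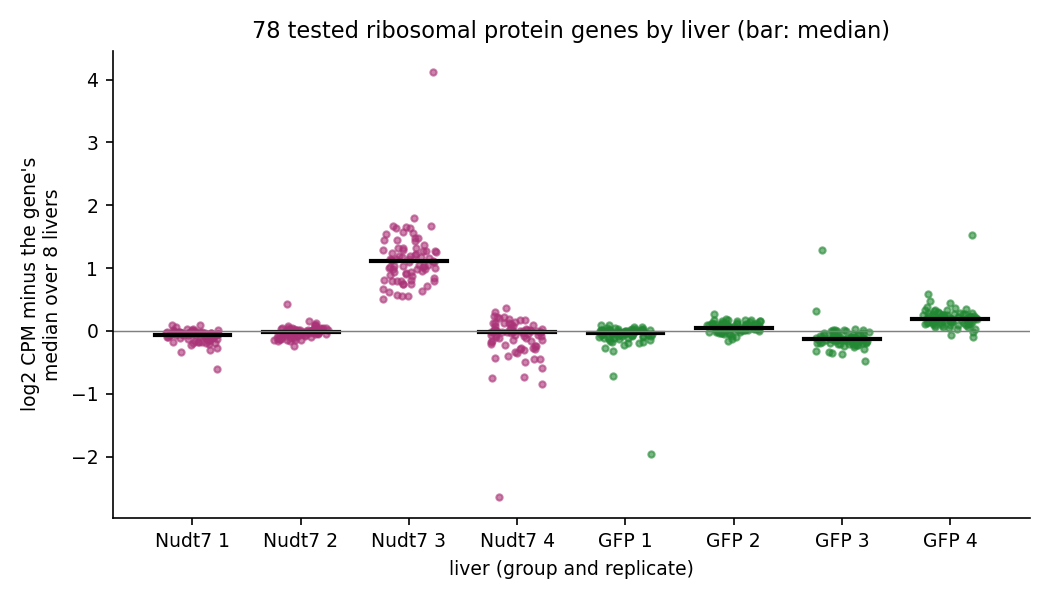
Each point is 1 of the 78 tested ribosomal protein genes in 1 liver, plotted as log2 CPM minus that gene's median over the 8 livers (vertical axis), and black bars mark the median of the genes. All 78 points of Nudt7 replicate 3 lie above 0, with a median of 1.11, and the medians of the other 7 livers lie between -0.13 and 0.19.

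Rps13 held 308, 293, 786 and 174 TPM with Nudt7 and 313, 362, 327 and 370 TPM with GFP. Nudt7 replicate 3 was above, and the other 3 Nudt7 livers were below, every GFP liver. With copies added, Rps13 held 309, 314, 804 and 271 TPM with Nudt7 and 325, 373, 329 and 381 TPM with GFP. The order was kept, and replicate 4 stood closer to Nudt7 replicates 1 and 2. The same arrangement was seen in Rps29, a zinc-binding small-subunit protein, at 481, 471, 827 and 380 TPM with Nudt7 and 508, 553, 521 and 580 TPM with GFP. Apart from replicate 3, Nudt7 replicate 4 was the lowest of the 8 livers in 21 members and GFP replicate 3 in 32. GFP replicate 4 was the highest of the remaining 7 livers in 58. The shares of all genes with these ranks are not given here. Across the 78 members, Spearman's rho between the log2 difference of Nudt7 replicate 3 from the other Nudt7 livers and that of Nudt7 replicate 4 from the GFP mean was -0.49; the values share libraries, since replicate 4 is among those other livers.

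The summed share of the library showed the same liver. Ribosomal protein transcripts made up 2.06%, 2.08%, 3.60% and 1.99% of all TPM in Nudt7 replicates 1 to 4, and 2.10%, 2.33%, 2.13% and 2.38% in GFP replicates 1 to 4. Group means were 2.44% ± 0.779 (SD, n = 4) with Nudt7 and 2.24% ± 0.140 (SD, n = 4) with GFP, so the difference was smaller than the spread among Nudt7 livers. Without replicate 3 the Nudt7 mean was 2.05% ± 0.0461 (SD, n = 3), below the GFP mean. The 3 remaining Nudt7 values (1.99% to 2.08%) lay just under the lowest GFP value of 2.10%. With copies added they were 2.46%, 2.49% and 2.45%, again under the GFP values of 2.53% to 2.85%. They overlapped the GFP livers without mitochondrial transcripts and in shares of estimated reads. With mitochondrially encoded transcripts left out of the total they were 2.52%, 2.51% and 2.59% against 2.50% to 2.99% with GFP. The large-to-small subunit ratio of summed TPM was 1.31 in every GFP liver, 1.35, 1.34 and 1.43 in Nudt7 replicates 1, 2 and 4, and 1.21 in Nudt7 replicate 3. The ratio was also taken with Rps27rt, the copy of Rps27, in the small-subunit sum, a comparison added after the data were seen. It was then 1.2035 in replicate 3, 1.26, 1.2515 and 1.33 in the other Nudt7 livers, and 1.2115 to 1.2498 in the GFP livers. The range over livers was narrower, but replicate 3 was still the lowest and the other Nudt7 livers were above every GFP liver. Copies of other members were not added to this ratio. As shares of estimated reads rather than TPM, Nudt7 replicate 3 had 1.52%, the other Nudt7 livers 0.808% to 0.826% and the GFP livers 0.796% to 0.932%.

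**Figure D2:**
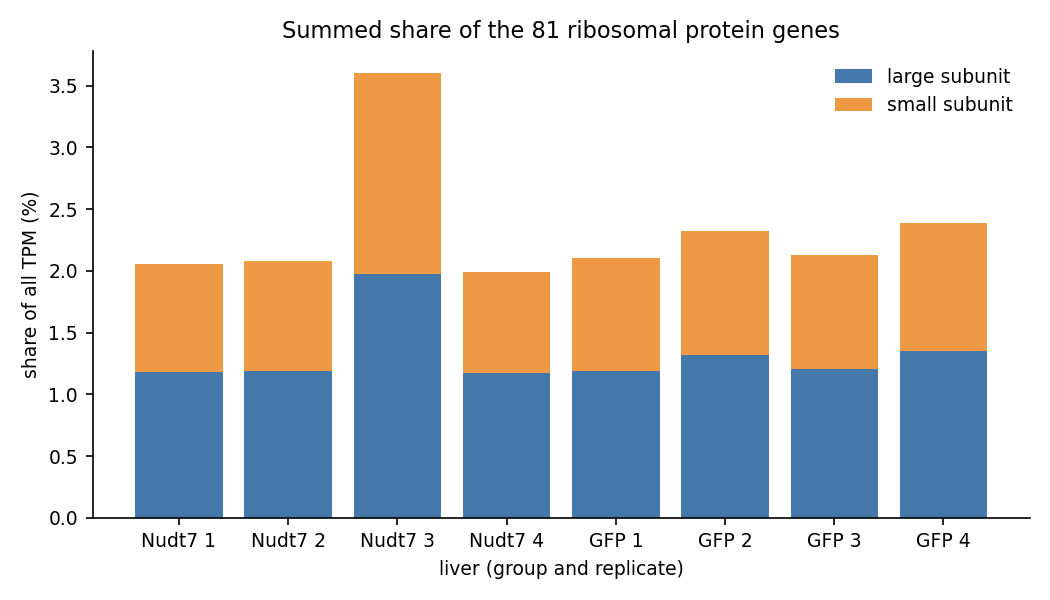
Bars give the summed TPM of the 81 ribosomal protein genes as a percent of all TPM in each liver (vertical axis, from 0), split into large and small subunit genes. Nudt7 replicate 3 stands at 3.60% and the other 7 livers between 1.99% and 2.38%.

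Several measures of the library moved with that liver. Red blood cell transcripts (Hba-a1, Hba-a2, Hbb-bs, Hbb-bt, Alas2 and Slc4a1, all 6 detected in every liver) summed to 1576 CPM in Nudt7 replicate 3 and to 310 to 640 CPM in the other 7; the range was 310 to 1576 CPM over the Nudt7 group and 418 to 617 CPM over the GFP group. That high sum lay chiefly in the globin genes Hba-a1, Hba-a2, Hbb-bs and Hbb-bt. Hbb-bs, for example, held 683 CPM in replicate 3 and 115 to 243 CPM in the others. Alas2 (57.7 against 25.2 to 50.6 CPM) and Slc4a1 (0.57 against 0.085 to 0.49 CPM) were only slightly above the next liver. Mitochondrially encoded transcripts held 11.1% of TPM in replicate 3 and 14.9% to 22.9% in the others. Hepatocyte markers (8 of 8 detected) summed to 85537 CPM there, within the 65902 to 96395 CPM of the other livers. Sinusoidal endothelial markers were lowest there, at 230 CPM against 253 to 306 CPM, as were stellate cell markers, at 270.2 CPM against 286 to 364 CPM. Kupffer cell markers were highest there, at 171 CPM against 81.03 to 159 CPM. So were proliferation markers, at 22.9 CPM against 16.5 to 20.4 CPM, and cholangiocyte markers, at 36.9 CPM against 17.0 to 34.2 CPM. For cholangiocyte markers the groups also did not overlap, at 31.5 to 36.9 CPM with Nudt7 and 17.0 to 30.9 CPM with GFP. In RNA from whole liver, a change in the number of cells of a type and a change of RNA per cell cannot be told apart. The part of these measures in the ribosomal protein values was not tested.

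Transcript length also moved with it. The deviation of a gene's log2 CPM from its mean over the 8 livers was fitted against log2 effective length (the length open to fragment starts). Over all 13678 genes tested the slope was -0.24 in Nudt7 replicate 3 and 0.01 to 0.05 in the other 7 livers. Because the mean is common to all livers, the slopes offset each other, and the negative slope of replicate 3 raises those of the others. Ribosomal protein genes were short: the effective lengths of the 78 ran from 189 to 1383 bases with a median of 522, and all of them fell in the shorter of 3 equal classes of genes (up to 1572 bases). Over the 3585 other genes tested with an effective length from 189 to 1383 bases, the median log2 difference of replicate 3 from the other 3 Nudt7 livers (a small constant added to each CPM) was 0.43, and over the members it was 1.12. Without that constant, the 39 shorter members had a median of 1.33 and the 39 longer members 1.05, and Spearman's rho between effective length and this difference was -0.49 over the 78 members, which all share the same libraries. The median of length minus effective length in transcripts of at least 2000 bases, a measure of the fragment length assumed by the quantification, was 324 bases in replicate 3, within the 314 to 360 bases of the other livers. The part of length in the members' values was examined only by removing the trend, below.

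**Figure D3:**
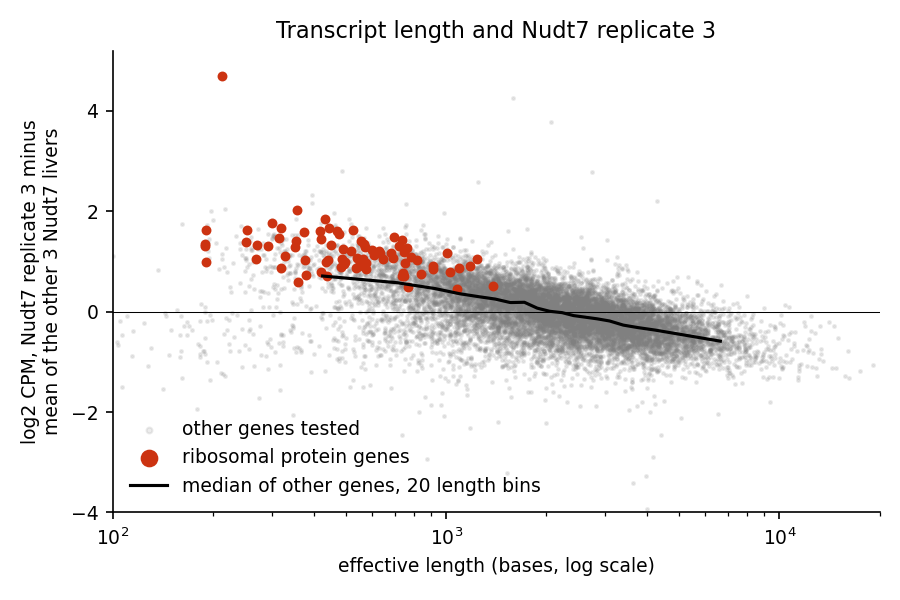
Each point is a tested gene, with its effective length in bases on a log scale (horizontal) and its log2 CPM in Nudt7 replicate 3 minus that of the mean of the other 3 Nudt7 livers (vertical); red points are ribosomal protein genes and the black line is the median of the other genes in 20 bins of length. The members are short and lie mostly above the line, with a median of 1.12.

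Between the groups, no ribosomal protein gene was called: 0 of 78 passed an adjusted p of 0.05 in edgeR's quasi-likelihood test, in which 16 of 13678 genes (0.117%) did, and DESeq2 called 0 of the 78 where it called 1.12% of all genes. At an unadjusted p under 0.05 there was 1 member, Rpl5, higher with Nudt7, where 8.28% of all genes reached that level; DESeq2 had 2 such members, beside 8.57% of all genes. On the CPM scale, in none of the 78 did the 4 Nudt7 livers and the 4 GFP livers separate without overlap, against 5.75% of all genes. The fitted log2 fold change (Nudt7 minus GFP) was positive in 77 of 78 members with a median of 0.33, while 49.8% of all genes were positive with a median of 0.00. Large-subunit genes (median 0.33, 47 of 47 positive) and small-subunit genes (median 0.33, 30 of 31 positive) did not stand apart. The standard errors had a median of 0.25, and in 77 of 78 members the 95% interval of the fold change included 0.

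That direction rested on Nudt7 replicate 3. Without it, 17 of the 78 members had a positive log2 fold change, 61 a negative one, and the median was -0.06 (all genes 0.00, of which 49.1% were negative). The median standard error was 0.11, and the fold changes of 73 members lay within 0.25 of 0 on the log2 scale. Again 0 members were called (0.0933% of all genes were), and 1 member, Rps15a, reached an unadjusted p under 0.05, in the lower direction, where 8.29% of genes did so in either direction. On the CPM scale the groups did not overlap for 3 members, Rps13, Rps27a and Rps29, all lower with Nudt7. That is 3 of 78, where 9.12% of all genes had groups that did not overlap on that scale. In TPM further members separated in the same direction, such as Rpl13a, Rpl30 and Rps18. The share of all genes that did so in TPM was not counted, so nothing is concluded from these examples. With all 8 livers and the trend on length removed instead, 59 members were positive and the median was 0.06. Leaving out any other single liver kept 76 to 78 members positive, with medians from 0.29 to 0.45.

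**Figure D4:**
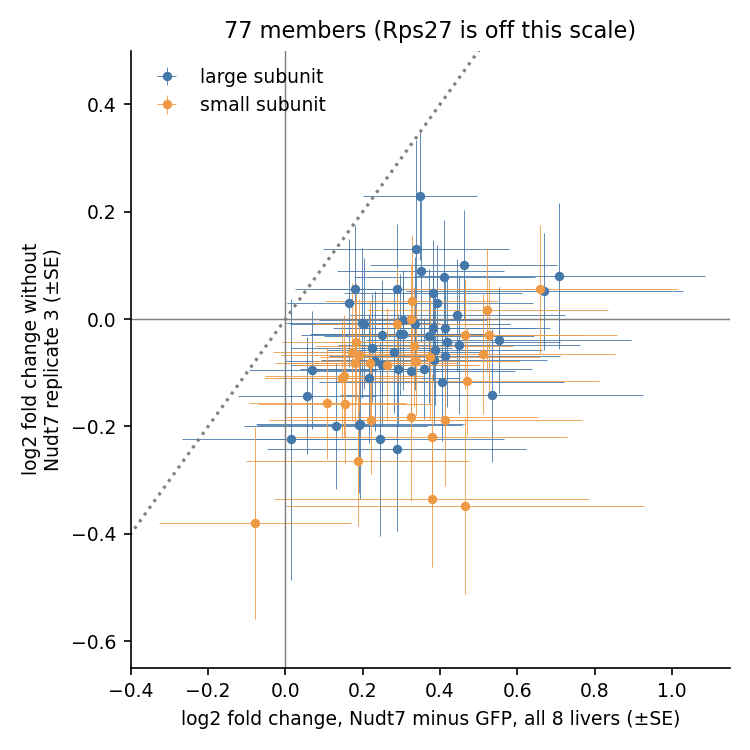
Each point is 1 of 77 tested ribosomal protein genes, with its log2 fold change (Nudt7 minus GFP, bars ± SE) from all 8 livers on the horizontal axis and from 7 livers without Nudt7 replicate 3 on the vertical axis; Rps27, at 1.51 and -1.46, is off this scale. The dotted line marks equal values, and 76 of the 77 points lie right of 0 while most lie at or below 0 on the vertical axis.

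Rps27, a zinc-binding protein of the small subunit, had the largest fold change and the largest error, 1.51 on the log2 scale (SE 1.36; adjusted p = 0.773, edgeR). The Nudt7 livers held 59.8, 67.1, 1002 and 6.74 TPM and the GFP livers 15.4, 80.7, 194 and 214 TPM. The groups overlapped, and the range over livers was 149-fold. The copy with the identical coding sequence, Rps27rt, held 604, 599, 114 and 607 TPM in the Nudt7 livers and 757, 703, 462 and 668 TPM in the GFP livers. It was lowest where Rps27 was highest. Their sum was 664, 666, 1115 and 614 TPM with Nudt7 and 772, 783, 656 and 882 TPM with GFP, a range of 1.82-fold. The share of the sum assigned to Rps27 ran from 1.10% to 89.8%. Summed with Rps27rt, the log2 fold change of Rps27 was 0.18 (SE 0.27; adjusted p = 0.855, edgeR).

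**Figure D5:**
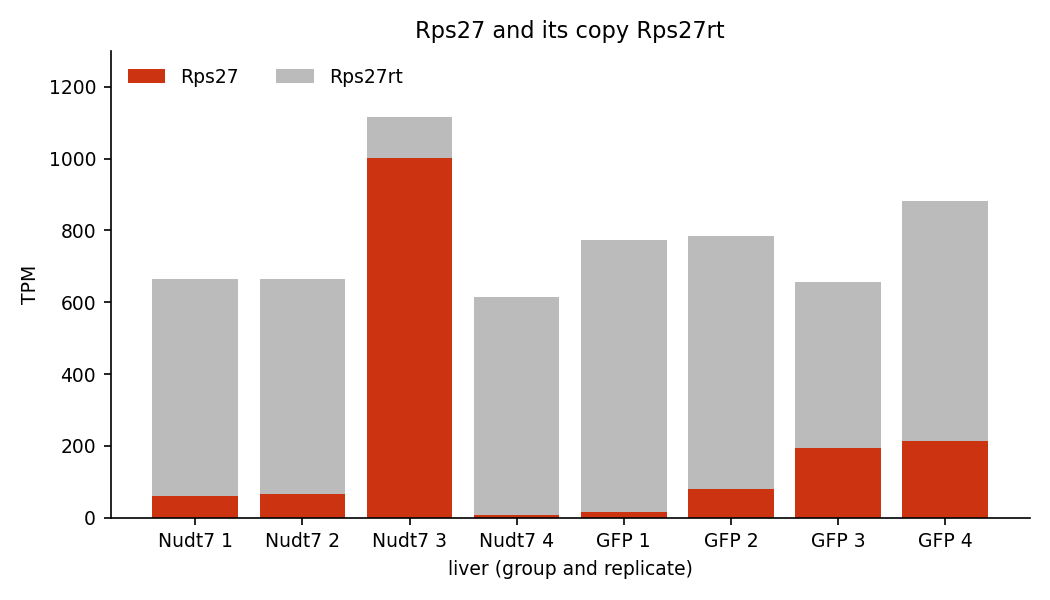
Stacked bars give the TPM assigned to Rps27 (red) and to its copy Rps27rt (grey) in each liver, from 0. The red part runs from 6.74 to 1002 TPM, while the whole bar runs from 614 to 1115 TPM.

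The other members at the upper end of the fold changes were Rpl35, Rpl32, Rps27l and Rpl26. For Rpl32, a large-subunit protein, the Nudt7 livers held 373, 383, 893 and 366 TPM and the GFP livers 315, 410, 371 and 402 TPM. Replicate 3 was high and the remaining Nudt7 livers lay inside the GFP range. Its log2 fold change was 0.67 (SE 0.36; adjusted p = 0.663, edgeR) and 0.05 without replicate 3. Rpl35 held 89.9, 91.6, 218 and 78.2 TPM with Nudt7 and 79.5, 92.4, 73.2 and 88.0 TPM with GFP. Its groups also overlapped, and the log2 fold change of 0.71 (SE 0.38; adjusted p = 0.664, edgeR) became 0.08 without replicate 3. Its copies held 67.1% of the sum, which was 253, 269, 605 and 272 TPM with Nudt7 and 257, 293, 228 and 284 TPM with GFP, with a log2 fold change of 0.63 (SE 0.34). Rpl26, a large-subunit protein, held 303, 288, 635 and 233 TPM with Nudt7 and 287, 311, 279 and 302 TPM with GFP; its log2 fold change was 0.55 with all livers and -0.04 without replicate 3.

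For Rpl5, of the large subunit, the Nudt7 livers held 25.4, 28.8, 26.2 and 30.2 TPM and the GFP livers 22.2, 26.5, 22.8 and 28.1 TPM. The groups overlapped by these values, and replicate 3 was not the highest on this scale. In CPM, the scale of the count test, it was: the Nudt7 livers held 21.6, 22.4, 31.04 and 23.8 CPM and the GFP livers 17.5, 20.4, 17.4 and 22.3 CPM. The log2 fold change was 0.35 (SE 0.15; unadjusted p = 0.0367, adjusted p = 0.581, edgeR) and 0.23 (SE 0.12) without replicate 3. Because 93.3% of the summed TPM of Rpl5 lay in copies, the value for the sum is the more complete: 332, 348, 457 and 451 TPM with Nudt7 and 379, 407, 358 and 410 TPM with GFP. For that sum the log2 fold change was 0.22 (SE 0.20; adjusted p = 0.764, edgeR).

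At the lower end stood Rps12, Rpl12, Rpl8, Rpl30 and Rps18. Rps12, a small-subunit protein, was the only tested member with a negative value from all 8 livers, -0.08 (SE 0.25; adjusted p = 0.945, edgeR). Its own TPM was 12.5, 18.6, 25.8 and 8.54 with Nudt7 and 21.7, 20.7, 19.5 and 19.8 with GFP. With copies the livers held 384, 413, 815 and 400 TPM with Nudt7 and 416, 431, 383 and 482 TPM with GFP, and the log2 fold change became 0.48 (SE 0.32). Rpl12, of the stalk base, went likewise from 0.01 (SE 0.28) alone to 0.69 (SE 0.33; adjusted p = 0.619, edgeR) with copies. Rpl8 lies near the catalytic centre of the large subunit; it held 267, 281, 335 and 284 TPM with Nudt7 and 279, 316, 329 and 340 TPM with GFP. The highest GFP value of Rpl8 exceeded that of replicate 3 on the TPM scale, and its log2 fold change of counts was 0.06 (SE 0.18). For Rpl30 the log2 fold change was 0.07 (SE 0.16), and -0.10 without replicate 3. For Rps18 it was 0.11 (SE 0.20), and -0.16 without replicate 3.

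Members with the highest levels gave the same picture as the rest. Rpl13a, a large-subunit protein that is also released to silence inflammatory mRNAs, held 512, 528, 1033 and 509 TPM with Nudt7 and 557, 651, 570 and 591 TPM with GFP. The 3 Nudt7 livers other than replicate 3 were below every GFP liver on this scale. Its log2 fold change was 0.36 (SE 0.28) from all livers and -0.09 (SE 0.10) without replicate 3. Rps25, of the small subunit, held 417, 429, 961 and 392 TPM with Nudt7 and 437, 503, 390 and 483 TPM with GFP, with 0.51 (SE 0.34) and -0.07 (SE 0.11) on the log2 scale. Rps2 held 536, 560, 799 and 565 TPM with Nudt7 and 522, 607, 580 and 608 TPM with GFP. Its values of 0.29 (SE 0.22) and -0.01 (SE 0.11) put it closer to 0 than Rps25 with all 8 livers. Rpl10, the X-linked gene whose protein joins late in large-subunit maturation, was not among the highest members. It stood at 173 TPM over the 8 livers and was named for its related pair. Its livers held 169, 156, 266 and 91.2 TPM with Nudt7 and 179, 164, 179 and 176 TPM with GFP. Here Nudt7 replicate 4 was low as well as replicate 3 high, and with its copies, which held 74.6% of the sum, Rpl10 stood at 654, 656, 1018 and 557 TPM with Nudt7 and 625, 659, 629 and 643 TPM with GFP.

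The members looked at whatever their result followed the common pattern. Rps6, the substrate of S6 kinase, held 366, 357, 633 and 419 TPM with Nudt7 and 397, 416, 389 and 432 TPM with GFP. Its log2 fold change was 0.33 (SE 0.26; adjusted p = 0.722, edgeR). Of the stalk genes, Rplp0 had a log2 fold change of 0.22 (SE 0.21), Rplp1 of 0.31 (SE 0.23) and Rplp2 of 0.25 (SE 0.24), and without replicate 3 the values were -0.05, -0.03 and -0.09. Rpsa, a small-subunit protein also described as a laminin receptor, had 274, 306, 381 and 332 TPM with Nudt7 and 289, 314, 331 and 362 TPM with GFP. Its log2 fold change was 0.17 (SE 0.20). Rpl41 held 410, 429, 747 and 390 TPM with Nudt7 and 426, 489, 418 and 417 TPM with GFP, with a log2 fold change of 0.41 (SE 0.27).

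Rps24 and Rpl41 were also examined by transcript, since both have several. In Rps24 the transcript ENSMUST00000112384.9 (468 bases) held 59.4% ± 7.29 of the gene's TPM with Nudt7 and 55.2% ± 5.97 with GFP (SD, n = 4 each). The next, ENSMUST00000169826.2 (519 bases), held 29.7% ± 6.73 and 32.6% ± 5.90. In Rpl41, ENSMUST00000176010.7 (582 bases) held 60.3% ± 4.51 and 58.5% ± 3.68. In each of these transcripts the difference between groups was smaller than the SD within the Nudt7 group, and the groups overlapped.

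Closely related gene pairs were compared by the log2 ratio of their TPM in a liver, in 4 of 7 pairs in which both genes had at least 10 estimated counts in every liver. With 70 ways to assign 4 of 8 livers to a group, the smallest two-sided exact p is 0.0286. The Rpl36al to Rpl36a ratio was 0.12 ± 0.26 with Nudt7 and 0.05 ± 0.12 with GFP (SD, n = 4 each), close to equal levels of both genes (exact permutation p = 0.714, adjusted p = 0.714 over 4 pairs). The Rps27l to Rps27 ratio was 2.23 ± 2.29 with Nudt7 and 1.68 ± 1.77 with GFP (exact permutation p = 0.686, adjusted 0.714); with Rps27rt added to Rps27, it was -1.13 ± 0.31 and -1.50 ± 0.20 (exact permutation p = 0.0857, a comparison added after the data were seen). Rps4l, which is not annotated as protein-coding and so is no member, stood at 18.8, 23.7, 22.9 and 19.3 TPM with Nudt7 and 12.5, 13.4, 17.5 and 17.8 TPM with GFP. Those groups did not overlap in Rps4l itself on the TPM scale, and on the CPM scale 5.75% of all genes had groups that did not overlap. The log2 ratio of Rps4l to Rps4x was -3.65 ± 0.28 and -4.10 ± 0.26 (exact permutation p = 0.0857, adjusted 0.171). Rpl22l1, outside the rule by its symbol, stood at 57.4, 76.1, 108 and 39.8 TPM with Nudt7 and 81.5, 87.7, 63.4 and 82.3 TPM with GFP. Its log2 ratio to Rpl22 was -1.81 ± 0.38 and -1.45 ± 0.13 (exact permutation p = 0.0857, adjusted 0.171). Over 4 pairs a single pair cannot reach an adjusted p below 0.114, so the adjusted p cannot show a difference in 1 pair alone.

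Other genes of the ribosome and of its making were described from 6 lists with tested genes; 0 of those genes were called (0.117% of all genes were). At an unadjusted p under 0.05, which 8.28% of all genes reached, there were 0 of 42 translation factors, 2 of 67 assembly factors, 1 of 22 genes of RNA polymerase I, 0 of 9 ribosome genes outside the symbol rule and 2 of 8 p53 targets. Of the 12 cytosolic ribosome genes outside the symbol rule, 9 were tested, 6 with a positive log2 fold change, with a median of 0.24 and of -0.06 without replicate 3. Rps3a1, of the small subunit, held 292, 296, 620 and 289 TPM with Nudt7 and 304, 339, 266 and 333 TPM with GFP, again with replicate 3 alone high. Translation factors (42 of 42 tested) had 27 positive and 15 negative values with a median of 0.08, and 15 positive with a median of -0.02 without replicate 3. The smallest p among them belonged to Eif5a, an elongation factor, at 0.29 on the log2 scale (SE 0.15; adjusted p = 0.642, edgeR) and 0.14 without replicate 3. Ribosome assembly factors (67 of 67 tested) had 25 positive and 42 negative values with a median of -0.03, and 14 positive with a median of -0.08 without replicate 3. The smallest p belonged to Tsr2, an escort of Rps26, at 0.52 (SE 0.23; adjusted p = 0.590, edgeR) and 0.26 without replicate 3. Genes of RNA polymerase I and rRNA transcription (22 of 23 tested) had 11 positive and 11 negative values with a median of -0.01, and 8 positive with a median of -0.08 without replicate 3. Polr1a, the largest subunit of that polymerase, held 44.1 ± 5.92 CPM with Nudt7 and 53.5 ± 4.12 CPM with GFP (SD, n = 4 each), or -0.28 on the log2 scale (SE 0.12; adjusted p = 0.590, edgeR) and -0.21 without replicate 3. The 17 snoRNA host RNAs were not analysed here.

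The mTORC1 and TOP control genes (33 of 34 tested) had 15 positive and 18 negative values with a median of -0.02, and 18 positive with a median of 0.01 without replicate 3. An unadjusted p under 0.05 was reached by 5 of the 33, beside 8.28% of all genes. Ddit4, a stress-induced inhibitor of mTORC1, held 21.9, 19.1, 30.3 and 14.1 CPM with Nudt7 and 72.1, 106, 25.8 and 152 CPM with GFP. Only Nudt7 replicate 3 and GFP replicate 3 crossed. Its log2 fold change was -2.07 (SE 0.46; adjusted p = 0.179, edgeR), and -2.28 without Nudt7 replicate 3. Sesn1, another inhibitor of the pathway, held 11.4 ± 3.62 CPM with Nudt7 and 26.3 ± 13.4 CPM with GFP (SD, n = 4 each), or -1.22 on the log2 scale (SE 0.35; adjusted p = 0.349, edgeR) and -1.37 without Nudt7 replicate 3. The p53 targets of ribosomal stress (8 of 10 tested) had 3 positive and 5 negative values with a median of -0.15, and 2 positive with a median of -0.12 without replicate 3. Trp53inp1 held 226, 80.8, 94.7 and 116 CPM with Nudt7 and 241, 202, 214 and 232 CPM with GFP. Nudt7 replicate 1 lay among the GFP livers in that gene. Its log2 fold change was -0.78 (SE 0.27, adjusted p = 0.467, edgeR) and -0.65 without Nudt7 replicate 3. Ccng1, the other p53 target with an unadjusted p under 0.05, went the other way. It held 25.5, 22.5, 31.5 and 30.6 CPM with Nudt7 and 20.6, 21.8, 21.2 and 23.5 CPM with GFP. The log2 fold change of Ccng1 was 0.34 (SE 0.13, adjusted p = 0.526, edgeR) and 0.28 without Nudt7 replicate 3.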

How the data were processed

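Stranded mRNA libraries, made per the labels' protocols from 500 ng of liver RNA with 9 cycles of PCR, were quantified by the authors with Salmon on GRCm38, per the submitters' processing notes, which also name FastQC and DESeq2. The version and index of Salmon were not given in the sources used here. Per the file headers, the deposited values are expected counts of reads per transcript, not normalized, and TPM per transcript, which sum to 1000000 in each library, beside the effective length. The labels name a batch or a sex for none of the livers.

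Of 109282 transcripts, 107987 (98.8%) were named by GENCODE M21 (GRCm38), and the rest, with 0.552% to 1.06% of a library's reads, were left out. Counts were summed per gene and rounded. Depth ran from 11187806 to 23640734 estimated reads per liver, and the precision of each value is given by its SE or SD between livers. edgeR 4.0.16 in R 4.3.3 (TMM scaling, filterByExpr by group, robust quasi-likelihood test, two-sided, Benjamini-Hochberg over 13678 genes, threshold 0.05) compared 4 Nudt7 with 4 GFP livers with no covariate; the common biological coefficient of variation was 0.196. CPM used the TMM-scaled depth. Alternatives used DESeq2 1.42.0 and limma 3.58.1, other scalings, length corrections, copies added (31-base words) and each liver left out. The edgeR fit and the removal of the length trend were run on simulated data, with a steeper length slope in Nudt7 replicate 3 than was measured. The outcome of that run is not given here. Members named are the 6 highest and 4 lowest tested in TPM, the 5 most positive and 5 most negative fold changes, the 5 smallest p, the related pairs, and Rpsa, Rplp0, Rplp1, Rplp2, Rpl41, Rps24 and Rps6; from other lists, those with the smallest p. Rps13, Rps15a, Rpl7a, Rpl4 and Rps27a were named after their values were seen. The members, lists and tests were chosen with earlier results of these data known. Malat1 and Neat1 were not analysed here, and 1 member that this rule would name is not reported here.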

Additional observations from a re-analysis of the deposited data

Results flagged for a closer look

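In groups of 4 livers, a liver was marked when its gap to the nearest other liver took up more of the group's range than Dixon's critical value allows; chance alone marks about 1 in 20 groups. Of 80 groups of values examined, 18 were marked, 16 of them for Nudt7 replicate 3, always as the highest, and 2 for GFP replicate 2. The values share libraries and are not independent. Some members, such as Rpl35, Rpl32, Rps27 and Rps27l, were named for a large fold change, which a high value in replicate 3 itself raises. The rate of about 1 in 20 does not hold for members chosen in that way.

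In Nudt7 replicate 3 the marked shares of TPM were those of all ribosomal protein genes (3.603%), of the large subunit (1.97%), of the small subunit (1.63%) and of members with copies (4.198%). The marked levels there were Rplp1 at 1107 TPM, Rpl13a at 1033, Rps2 at 799, Rps25 at 961, Rps27 at 1002, Rpl35 at 218, Rpl32 at 893, Rps27l at 678, Rpl22 at 362, Rpl41 at 747 and Rps24 at 878 TPM, and the sum of Rps27 and Rps27rt at 1115 TPM. In GFP replicate 2, Rps27l at 312 TPM and Rpl41 at 489 TPM were the highest of the GFP livers. No explanation was tested.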

How the results depend on the processing

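No paired analysis was possible because the labels give the livers no shared numbers: replicate numbers follow the order of deposit and only name a liver. In all 21 alternatives 0 ribosomal protein genes were called, and the smallest adjusted p of a named member was 0.409. Among 630 values of 30 named tested members under 21 alternatives, 78 had the opposite sign to the value reported, 42 of them in the alternatives without Nudt7 replicate 3, and none was called.

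The count of members with a positive fold change (77) was 40 with limma-voom and sample weights and 17 without Nudt7 replicate 3 together with removal of the length trend; over the fits leaving out 1 liver it ran from 17 to 78. The median log2 fold change of members (0.33) was 0.00014 with sample weights, 0.0567 with the length trend removed, 0.0660 with limma-trend on log2(TPM + 1), where the median of all genes was -0.096, and -0.0616 with the trend removed and without replicate 3; leaving out 1 liver gave -0.0634 to 0.454. The difference in summed share (0.20 percentage points) ran from -0.19 without Nudt7 replicate 3 to 0.35 without Nudt7 replicate 4.

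Over all genes, 6 were higher and 10 lower. DESeq2 gave 87 and 66, voom with sample weights 57 and 46, voom 4 lower, no filter 15 higher, removal of the length trend 25 higher, upper-quartile scaling 6 lower, the effective length offset 6 lower, limma-trend on TPM 3 and 5, and the trend removed without replicate 3 gave 4 lower. Leaving out 1 liver gave 1 to 8 higher and 1 to 12 lower. The cause of these shifts was not tested.

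For the pairs, leaving out 1 liver moved the group difference in log2 ratio from -0.38 to 1.48 for Rps27l to Rps27, from -0.0461 to 0.139 for Rpl36al to Rpl36a, from 0.37 to 0.57 for Rps4l to Rps4x and from -0.50 to -0.19 for Rpl22l1 to Rpl22; the unadjusted exact permutation p reached 0.0286, the smallest possible, for Rps4l without Nudt7 replicate 3 and for Rpl22l1 without Nudt7 replicate 2. Depth does not set the limit for members with near-identical copies, whose reads the letters cannot assign.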
